A study of Mus musculus with 2 samples.

Results

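The genes described here encode the receptors and granule proteins by which platelets stick to a damaged vessel wall: the von Willebrand factor receptor subunits Gp1ba, Gp1bb, Gp9 and Gp5, the collagen receptor Gp6, the fibrinogen receptor chains Itga2b and Itgb3, the granule membrane receptor Treml1, the granule chemokine Pf4 and the granule assembly factor Nbeal2. They were chosen as all probe sets, the groups of short probes that report 1 transcript, whose only annotated gene is 1 of these 10 names. This gave 12 of the 45037 probe sets on the array, for 9 of the 10 genes. No probe set named Gp1ba alone, and a further probe set annotated to both Septin5 and Gp1bb was kept out.

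The study compared haematopoietic stem cells, the marrow cells that renew all blood lineages, from mice lacking the phosphatase Wip1 (gene Ppm1d) and from wild-type mice. Both samples came from animals aged 3 months, and total RNA of each was hybridised to 1 Affymetrix array. The sources used here do not give the knockout allele, the sort, the number of animals per sample or their sex. Ppm1d itself had a pair of probe sets, the brighter at an intensity of 160 in the knockout and 167 in the wild type, the dimmer at 59.0 and 55.6. Which exons they read, and which were deleted, is not known here, so the pair does not check the genotype labels.

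Platelets are shed by megakaryocytes, large polyploid cells of the marrow. Some stem cells already carry low levels of megakaryocyte transcripts, and such cells are known to give rise to platelets readily. In a megakaryocyte the transcription factor GATA1 and factors of the ETS family switch on the glycoprotein genes. The proteins then assemble into complexes: Gp1ba, Gp1bb, Gp9 and Gp5 into the von Willebrand factor receptor, and Itga2b with Itgb3 into the fibrinogen receptor. Gp6 signals on collagen, while Pf4 and Treml1 are stored in alpha granules whose formation needs Nbeal2.

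The knockout sample had lower signals for most of the detected members. Pf4 was 1.71-fold lower, Treml1 1.48-fold, Gp5 1.39-fold and Itga2b 1.36-fold lower, while Nbeal2 was 1.47-fold higher. Gp9 was nearly the same in both samples. Gp6 gave no signal above the middle of the array in either sample. Each genotype has 1 array, so there is no replicate check, no test and no p-value, and a difference between these samples need not come from the genotype.

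Promoter sequences are shown for Pf4, which differed most among members above the median on both arrays, for Gp5 and Itga2b, which stand for the receptor genes, and for Nbeal2, which differed the other way. Each runs 5′ to 3′ in the direction of the gene, from 250 bases before to 50 bases after the RefSeq start, in build GRCm38.p6. Capitals mark the letters searched for on both strands. GATA factors are known to bind AGATAA as well as TGATAA, and a match to either was counted. ETS factors bind AGGAAG, the related run CGGAAG and the run AGGAAA, each of which was counted. The windows are chr5:90772185-90772484 on the plus strand for Pf4, chr16:30310732-30311031 on the minus strand for Gp5, chr11:102469834-102470133 on the minus strand for Itga2b and chr9:110654112-110654411 on the minus strand for Nbeal2.
Pf4: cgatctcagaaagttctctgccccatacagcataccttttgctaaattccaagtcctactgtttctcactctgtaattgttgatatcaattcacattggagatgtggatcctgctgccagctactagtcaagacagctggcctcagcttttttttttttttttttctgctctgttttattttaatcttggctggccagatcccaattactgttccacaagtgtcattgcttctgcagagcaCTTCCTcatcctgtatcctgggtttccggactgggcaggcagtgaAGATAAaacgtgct
Gp5: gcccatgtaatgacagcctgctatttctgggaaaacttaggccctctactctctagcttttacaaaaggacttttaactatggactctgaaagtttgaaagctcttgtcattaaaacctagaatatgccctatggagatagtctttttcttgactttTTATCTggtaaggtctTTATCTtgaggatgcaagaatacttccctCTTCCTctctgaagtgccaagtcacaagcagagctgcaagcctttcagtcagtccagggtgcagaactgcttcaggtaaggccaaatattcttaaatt
Itga2b: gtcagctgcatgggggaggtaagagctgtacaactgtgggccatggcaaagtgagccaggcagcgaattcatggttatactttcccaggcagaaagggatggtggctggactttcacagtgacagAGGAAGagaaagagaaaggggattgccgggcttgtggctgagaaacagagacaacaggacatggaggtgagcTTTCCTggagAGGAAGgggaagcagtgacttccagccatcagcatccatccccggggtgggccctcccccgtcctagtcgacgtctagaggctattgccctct
Nbeal2: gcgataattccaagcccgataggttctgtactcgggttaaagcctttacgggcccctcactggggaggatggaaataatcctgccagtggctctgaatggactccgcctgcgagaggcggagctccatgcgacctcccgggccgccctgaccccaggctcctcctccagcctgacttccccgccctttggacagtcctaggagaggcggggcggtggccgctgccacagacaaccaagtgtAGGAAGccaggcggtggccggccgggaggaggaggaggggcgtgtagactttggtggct

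Of the 10 genes, 9 matched an entry of the RefSeq promoter table by symbol. ETS letters occurred in 9 of the 9 promoters, against 61.9% of all 32851 promoters of this length. GATA letters occurred in 4 of the 9, those of Pf4, Gp5, Gp1ba and Gp6, against 18.6% of all. The Gp5 window holds 2 GATA matches, starting 93 and 77 bases before the start, both on the opposite strand. In Pf4 the GATA match begins at base 37 after the start and the ETS match 9 bases before it. Itga2b and Nbeal2 hold ETS letters and no GATA letters in this window. In Gp9 the pair of ETS matches share bases. A match is a run of letters, not a bound site, and members with GATA letters included Pf4, which was lower, and Gp6, which had no measurable level.

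Levels are given as the deposited intensity, in arbitrary units, beside the median of all probe sets on the same array, which was 25.9 in the knockout and 25.2 in the wild type. A probe set was called detected when it lay above that median on at least 1 array. That held for 19906 of all 34945 single-gene probe sets and, by brightest probe set, for 11440 of all 18193 genes. Values under the median were raised to it, and any difference that rests on one is a bound. Differences are log2 knockout minus wild type, with the arrays centred on the median difference of detected single-gene probe sets. The file's own measure of error is how far several probe sets of a gene disagree: pooled within 5084 such genes, the SD of a single probe set's difference was 0.22. This SD pools all intensities and includes differences that are bounds. An SD without the bounds, or at the intensity of each member, was not computed. It holds no variation between animals or arrays.

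**Figure D1:**
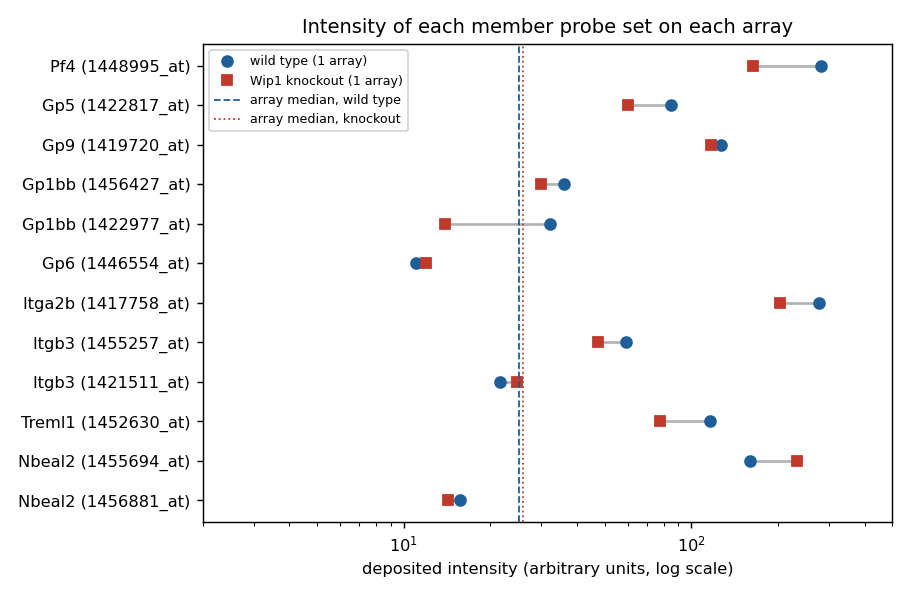
Deposited intensity (arbitrary units, log axis) of each of the 12 member probe sets on the wild-type array (circles) and the Wip1 knockout array (squares), with the array medians as vertical lines. The knockout square lies left of the wild-type circle for Pf4, Gp5, Gp9, both probe sets of Gp1bb, Itga2b, Treml1, 1 of 2 Itgb3 probe sets and the dim probe set of Nbeal2, and right of it for Gp6, the dim Itgb3 probe set and the bright Nbeal2 probe set.

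Of the 12 probe sets, 9 were detected, standing for 8 genes, and 8 lay above the median on both arrays. Among all 34945 single-gene probe sets, 19906 were detected and 18765 of these were above the floor on both arrays. Both arrays placed 4 of the 12 member probe sets above the 75th percentile, at intensities over 113 and 111. These were the probe sets of Pf4, Gp9, Itga2b and the brighter one of Nbeal2. The 3 that were not detected were those of Gp6, 1 of Itgb3 and 1 of Nbeal2. No member probe set held the same value on both arrays, which 2535 probe sets of the array did.

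Among the von Willebrand factor receptor subunits, Gp5, a chain that thrombin cleaves, had an intensity of 60.1 in the knockout and 84.6 in the wild type. That is 1.22 and 1.75 on the log2 scale above the median of each array. Its difference was -0.48, and 2.87% of all detected single-gene probe sets were at least as far below 0. Gp5 thus lay 2.2 SDs of a single probe set below 0.

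Gp9, a small chain that the complex needs to reach the cell surface, had an intensity of 117 in the knockout and 127 in the wild type, 2.18 and 2.33 above the median on the log2 scale. Its difference of -0.10 was within the SD of 0.22. Of all detected single-gene probe sets, 32.4% were at least as low. Gp5 differed by 0.38 more than Gp9, against an SD of 0.31 for the difference of 2 probe sets.

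Gp1bb, the disulphide-linked partner of Gp1ba, was measured close to the median in 2 probe sets. The brighter had intensities of 29.9 in the knockout and 36.1 in the wild type, with a difference of -0.26. The dimmer had 13.9 in the knockout, under the median, and 32.3 in the wild type, so its difference is a bound, at least 1.24-fold lower. That probe set passed the detection limit through the wild-type array alone and could therefore only come out lower or near 0. Without a floor its difference was -1.20, the widest move of any member with the processing. The probe set shared with Septin5, the neighbouring gene, had 12.4 and 15.1 and was under the median on both arrays.

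The collagen receptor Gp6 had intensities of 11.9 in the knockout and 11.0 in the wild type, which are -1.12 and -1.20 relative to the array median on the log2 scale. Its only probe set sat at percentiles of 29.9 and 27.2, so no difference is given. Fcer1g, the signalling chain that pairs with Gp6, was bright, at 353 in the knockout and 286 in the wild type, with a difference of 0.32.

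Of the fibrinogen receptor, the alpha chain Itga2b had an intensity of 203 in the knockout and 277 in the wild type. This was 2.97 and 3.46 above the median on the log2 scale, with percentiles of 83.1 and 86.9 among all probe sets. The difference was -0.44, and 3.84% of detected probe sets were at least as low. Itga2b is also known as CD41, an early surface marker of the megakaryocyte lineage.

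The beta chain Itgb3, which pairs with Itga2b in platelets and with another alpha chain elsewhere, was dimmer. Its detected probe set had 47.4 in the knockout and 59.3 in the wild type, with a difference of -0.31 that 8.84% of detected probe sets matched or passed. The other had 24.8 and 21.5, under the median on both arrays, so it was not counted. Without centring or a floor it differed by 0.21, the opposite direction. The differences of Itga2b and Itgb3 lay 0.13 apart, within the SD of 0.31 for 2 probe sets.

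Pf4, a chemokine packed into alpha granules and one of the most specific megakaryocyte transcripts, had an intensity of 164 in the knockout and 283 in the wild type. It stood 6.35 times the array median in the knockout and 11.2 times in the wild type. The difference of -0.77 was the only one of the members past 1.5-fold with values under the array median raised to it. The dimmer Gp1bb probe set, a bound there, cannot be ranked against it and was further below 0 without a floor, as given above. Of all detected probe sets 0.573% were at least as low, and of the 1990 closest to it in mean intensity, when all were sorted into 10 equal bins, 0.854% were. Under the 9 alternatives it ranged from -0.79 to -0.69.

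Treml1, a receptor of the alpha granule membrane that reaches the surface on activation, had 78.0 in the knockout and 116 in the wild type. The difference was -0.56, or 1.48-fold, just short of 1.5-fold. With the 75th percentile as floor, which lies above its knockout value and just below its wild-type value, it became -0.0036.

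Nbeal2, a scaffold protein whose loss empties the alpha granules in grey platelet syndrome, went the other way. Its bright probe set had 233 in the knockout and 160 in the wild type, a difference of 0.56, which 3.42% of detected probe sets matched or passed upwards. Its second probe set had 14.2 and 15.7, under the median on both arrays, so it was not counted. Without centring or a floor it differed by -0.15. Nbeal2 and Pf4 differed by 1.33 from each other, 4.3 times the SD of the difference of 2 probe sets.

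**Figure D2:**
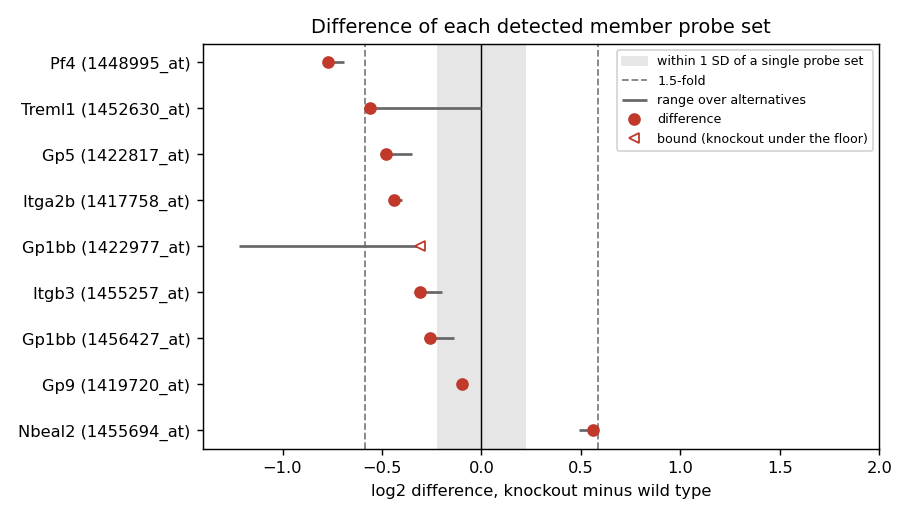
Log2 difference (knockout minus wild type) of each of the 9 detected member probe sets, with the range over the processing alternatives as a line, the SD of a single probe set of 0.22 as a grey band and 1.5-fold as dashed lines. Pf4 at -0.77 lies past 1.5-fold, Gp9 lies within the band, Nbeal2 is the one member above 0, and the long line of 1 Gp1bb probe set comes from its knockout value under the floor.

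In all, 8 of the 9 detected member probe sets were lower in the knockout, where 49.4% of all 19906 detected single-gene probe sets were, and 1 was higher, against 50.6%. At least 1.5-fold lower were 1 of the 9, against 1.46% of all, and at least 1.5-fold higher were 0 of the 9, against 3.06%. None was past 2-fold in either direction, against 0.196% lower and 0.533% higher among all. The median of the 9 differences was -0.31, beside 0.00 over all detected probe sets. These counts describe the probe sets that passed detection and not all 12. Of these, 1 passed through the wild type alone and could only come out lower or near 0. With no filter on low values and no floor, 9 of the 12 were lower. The bright Nbeal2 probe set, Gp6 and the dim Itgb3 probe set were then higher. The share of all probe sets that were lower under that setting was not computed.

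Of the 8 probe sets measured above the median on both arrays, 7 lay further than 1 SD of a single probe set from 0 and 5 further than 2 SDs. Among all 18765 single-gene probe sets measured above the floor on both arrays, 35.5% lay further than 1 SD and 9.86% further than 2 SDs. The 5 were those of Pf4, Treml1, Gp5, Itga2b and Nbeal2. All 12 probe sets are of the plain class, with none of the classes whose probes can match several transcripts. In the scatter over all detected probe sets the members lie in the dim to middle range of intensity.

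**Figure D3:**
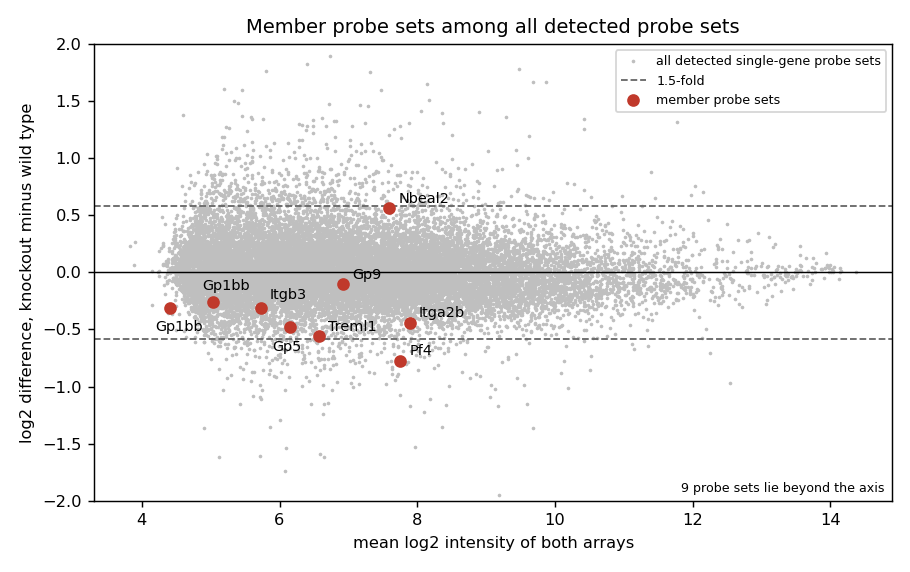
Log2 difference against mean log2 intensity of both arrays for all 19906 detected single-gene probe sets (grey) with the 9 detected member probe sets in red and 1.5-fold as dashed lines; 9 grey points lie beyond the axis. Pf4 lies below the lower dashed line, and Nbeal2 close to the upper one.

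Nearest protein-coding neighbours in the reference gene order (GRCm38.p6) were looked up after the members' values were known. Of 20 neighbours, 10 were detected, while 4930544D05Rik, Septin5 and Efcab13 had no probe set of their own. The differences of the 10 ran from -0.10 to 0.91, with 1 lower and 9 higher, where 50% of all detected genes lay each way. Apart from Efcc1 (0.29) and Myl4 (0.91), the 9 lay between 0.01 and 0.12, within the SD of 0.22 of a single probe set. Among the 9 is Nradd, beside Nbeal2, with 60.1 on both arrays, which lies above 0 through the centring alone. None was 1.5-fold lower, against 1.55% of all detected genes, and 1 was 1.5-fold higher, against 2.32%. That one was Myl4, a myosin light chain gene beside Itgb3, at 63.3 in the knockout and 34.0 in the wild type. Ppbp, a platelet chemokine gene next to Pf4, had 10.8 and 14.2 and was under the median on both arrays.

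Around these genes, 5 lists of other megakaryocyte genes were examined, with 114 genes in all, each by its brightest probe set. Of the 93 that were detected, 44 were lower and 49 higher, against 50% each way among all detected genes, with a median of 0.02 beside 0.00 over all 11440 detected genes. At least 1.5-fold lower were 5 (5.38%), against 1.55% of all detected genes. These were Mmrn1, Gata1, Snap23, Selp and Vwf. By its brightest probe set Ets1 alone was at least 1.5-fold higher, which is 1.08% against 2.32% of all. The brightest probe set did not always speak for a gene. Among 100 other detected probe sets of the listed genes, 7 passed 1.5-fold upwards and 2 downwards, against 3.06% and 1.46% of all detected probe sets. The 7 were those of Meis1 (1.82, with -0.20 in its brightest), Rhoa (0.98), Tgfb1 (0.88), Syk (0.83), Tln1 (0.61) and 2 of Ets1, and the 2 were those of Selp.

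The list of alpha granule cargo and granule sorting genes held 4 of those 5. Of its 19 detected genes 10 were lower and 9 higher, against 50% each way among all detected genes, with a median of -0.03. Mmrn1, multimerin, the granule carrier of factor V, had 147 in the knockout and 283 in the wild type, a difference of -0.94. Snap23, a membrane fusion protein of granule release, had 103 and 180 in its brightest probe set (-0.79), with -0.46 and -0.35 in the others. Selp, P-selectin, the granule adhesion receptor, had 223 and 371, and its 3 probe sets differed by -0.73, -0.72 and -0.59. Vwf, the adhesive ligand of the Gp1b complex, had 77.5 and 124 (-0.66). Vps33b and Vipas39, which sort granule cargo together, differed by 0.08 and 0.03. The cargo genes Ppbp, Thbs1 and Pdgfb were not detected.

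Among platelet surface receptors outside the members, 9 of 14 detected genes were lower and 5 higher, against 50% each way among all detected genes. None reached 1.5-fold. Itga2 and Jam3, 2 of the 5, passed detection through the knockout array alone and had to come out higher. The median was -0.09. Those that differed most by brightest probe set were the tetraspanin Cd9 (294 against 380, -0.36) and the prostaglandin receptor Ptger3 (290 against 365, -0.32). Next came the thromboxane receptor Tbxa2r (136 against 113, 0.28) and the thrombin receptor F2r (2502 against 3045, -0.27, with -0.46 in another probe set). Clec1b, the podoplanin receptor, P2ry1 and P2ry12, the ADP receptors, and Cd36, F2rl2 and Cd226 were under the median on both arrays, as was Gp6.

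Of the signalling genes downstream of the glycoprotein receptors, 15 of 21 detected genes were higher and 6 lower, against 50% each way among all detected genes. Their median was 0.10, and many of the 15 lay within the SD of 0.22 of a single probe set, such as Fermt3 (0.01) and Gna13 (0.03). None reached 1.5-fold. Ubash3b, a phosphatase that restrains Gp6 signalling, had 151 in the knockout and 104 in the wild type (0.55, with 0.25 and 0.39 in other probe sets). The exchange factor Vav1 had 176 and 124 (0.52, with 0.43 in another). The phospholipase Plcg2 differed by 0.38 and the arachidonate-releasing Pla2g4a by -0.34. Many of these genes also serve other blood cells.

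Cytoskeletal and proplatelet genes went both ways, with 11 of 23 detected genes lower and 12 higher, against 50% each way among all detected genes. Their median was 0.02. Tropomyosin Tpm4 had 346 against 233 (0.58) and the actin-severing Gsn 200 against 142 (0.51, with 0.14, 0.22 and 0.49 in other probe sets). Pdlim7 had 104 against 144 (-0.45, with -0.22 and -0.19 in other probe sets) and the tubulin Tuba8 45.1 against 61.5 (-0.44). Tubb1, the tubulin isoform of platelets, was dim at 36.1 and 40.4 (-0.15).

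The megakaryocyte transcription factor list split evenly, as did all detected genes (50% each way), with 8 of 16 detected genes lower, 8 higher and a median of 0.01. Gata1, which drives the glycoprotein genes, had 74.2 in the knockout and 134 in the wild type (-0.84, 1 probe set), and its cofactor Zfpm1 had 269 and 367 (-0.43, with -0.09 in another probe set). Gata2, which acts in stem cells before Gata1, differed by -0.33, with -0.22 in another probe set. Ets1 had 164 and 102 (0.70), with its other probe sets at -0.12, 0.75 and 0.91. Fli1, Gfi1b and Nfe2, which also act in megakaryocytes, differed by -0.11 (0.08 in another probe set), 0.03 and 0.24.

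**Figure D4:**
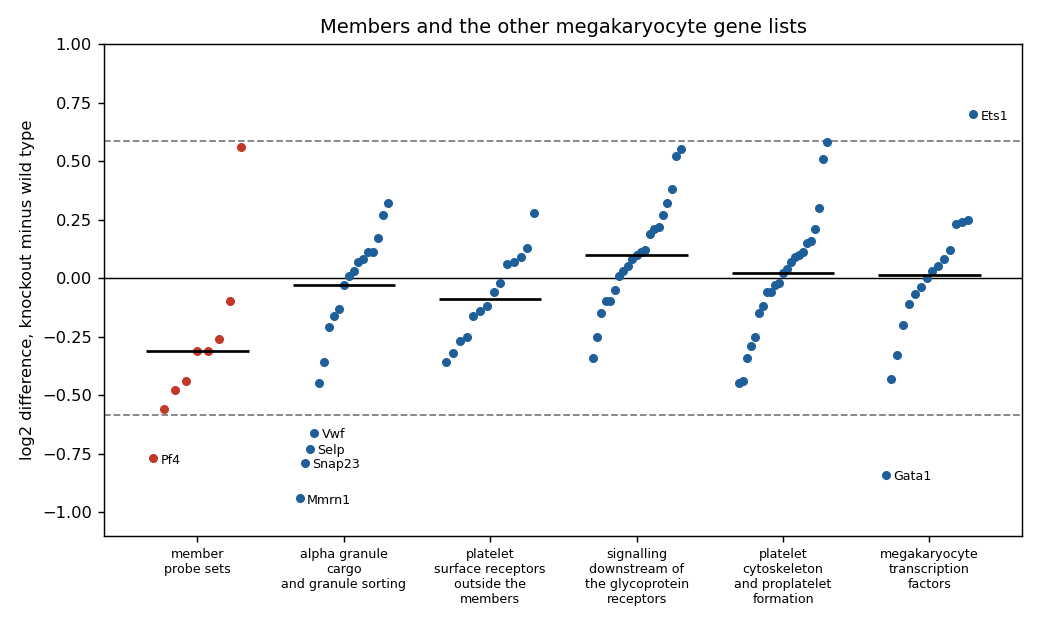
Log2 difference (knockout minus wild type) of the 9 detected member probe sets (red) and of the detected genes of 5 other megakaryocyte lists (blue, brightest probe set of each gene), sorted within each column, with the median as a bar and 1.5-fold as dashed lines. Genes past 1.5-fold are named; the members' bar lies at -0.31 and the other bars between -0.09 and 0.10.

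Of the stem cell markers, 10 of 11 measured genes lay above the median on both arrays. So did 6 of 6 neutrophil, 4 of 5 B cell and 3 of 5 T and NK cell markers. Among all 18193 genes, 11440 were above it on at least 1 array, so the count does not identify the cells. Hoxb5 was under the median in the knockout (21.6 against 29.6), and Ly6a was not analysed here. Summed over the list, intensity was 5399 in the knockout and 4383 in the wild type. Most of that gap lay in Hlf (1270 against 788) and Hoxa9 (1773 against 1303). By brightest probe set 4 of the 11 were lower and 7 higher, against 50% each way among all detected genes, with a median of 0.05. Hoxb5, among the 4, passed detection through the wild type alone and could only come out lower or near 0. Furthest from 0 were Hlf (0.70, with 0.84 in another probe set), Slamf1 (-0.66), Tek (-0.59) and Hoxa9 (0.46, with 0.35 in another). The other probe sets of Slamf1 differed by -0.29 and -0.13. With bulk RNA, fewer cells that carry megakaryocyte transcripts and less such RNA per cell cannot be told apart.

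Among markers of other blood cells, only the monocyte and macrophage list held genes at least 1.5-fold apart by brightest probe set. These were 2 of its 6 detected genes, both higher in the knockout, against 2.32% of all detected genes. The erythroid list, whose lineage shares a progenitor with megakaryocytes, had 8 of 10 measured genes detected. Of these, 5 were lower and 3 higher, against 50% each way among all detected genes. Summed intensities were 1224 in the knockout and 1325 in the wild type. Alas2 and Rhag were under the median on both arrays. Monocyte and macrophage markers summed to 1074 and 546, with 6 of 7 detected, and most of that gap lay in Csf1r (770 against 294). Csf1r differed by 1.40 in that brightest probe set and by 0.98 and 0.35 in its others. Adgre1 was under the median on both arrays.

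Neutrophil markers summed to 8889 in the knockout and 11063 in the wild type, with 6 of 6 measured genes detected, and most of that gap lay in Mpo (3665 against 5498, -0.57). B cell markers summed to 318 and 273 with 5 of 5 detected, T and NK cell markers to 749 and 929 with 3 of 5 detected (Cd3d and Cd3g were not), of which Nkg7 made up 668 and 835, and mast cell and basophil markers to 393 and 378 with 5 of 6 detected (Ms4a2 was not). Transcripts that depend on sex differed as well: Xist had 3778 and 6227 in its brightest probe set, and the Y-linked Eif2s3y 149 and 31.8. The part of these differences in the members' values was not tested.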

How the data were processed

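Expression was measured in 2 samples, 1 array per genotype. The authors deposited a linear intensity for each probe set, from 3.79 to 23137 in the knockout and 3.54 to 23180 in the wild type. MAS5, without a version, is named in the submitters' processing notes. How the arrays were normalized is not given in the sources used, and the 2535 probe sets with equal values on both arrays, which arrays summarised separately would seldom give, leave the origin of the values unsettled. Probe sets were named through the platform annotation: 34945 had 1 gene, 932 several and 9160 none listed.

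Intensities were scaled by a median shift of -0.01 (log2), floored at each array's median and converted to log2 (Python 3.11.15, pandas 2.3.3, numpy 2.4.6). For listed genes the brightest probe set was used. The size counted was 1.5-fold. Named genes were Ppm1d, every member and the 4 of each megakaryocyte list with the largest difference; marker, sex-linked and other genes were named after their values were seen. With 2 arrays, likeness of pattern could not be measured. The procedure was tested on simulated data. Members and lists were chosen with earlier results of these data known. Alternatives covered centring, quantile and loess normalization (statsmodels 0.14.6, span 0.4), the floor, an offset, the low-value filter, the probe set class, the summary per gene and the fold. The number of arrays limits the precision.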

Additional observations from a re-analysis of the deposited data

How the results depend on the processing

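No paired analysis was possible because each genotype has 1 array. Of 178 values recomputed under an alternative, 165 stayed within the SD of a single probe set, or within 1.5 times for a count, and 13 moved further. Some of the 165 could hardly move. No member probe set is of the classes that the class setting dropped, and Gp6, left out in turn, was not detected. Counts were compared without regard to how many probe sets were detected. Thus 8 of 9 member probe sets lower, and 9 of 12 with no filter on low values, were taken as the same. Pf4, the only member past 1.5-fold in the main setting, did not turn its direction. The number of member probe sets at least 1.5-fold lower was 1, and it became 2 with a floor at the 25th percentile, with no floor and with no filter on low values, and 0 at 2-fold. The added probe set was the dimmer one of Gp1bb, whose difference was -0.31 as a bound, -1.21 with the lower floor, -1.20 with no floor, -1.22 with no filter and -0.53 with the array median added as an offset; its knockout value lies under the floor. With a floor at the 75th percentile, 5 member probe sets were left, of which 4 were lower, the median was -0.08 in place of -0.31 and Treml1 came to -0.0036; fewer probe sets and a higher floor are part of that setting. The members' median lay between -0.44 and -0.31 when each member gene was left out in turn. The 5 genes past 1.5-fold lower on the other megakaryocyte lists became 3 with that floor and 0 at 2-fold. The medians of the cytoskeletal list (-0.05 to 0.10) and the transcription factor list (-0.00069 to 0.05) lay close to 0 and crossed it under some alternatives. Signal close to the array median limits Gp1bb, Gp6, the second probe sets of Itgb3 and Nbeal2, and Tubb1.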
